A study of Mus musculus with 10 samples.

Results

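The 9 genes described here, Gata6, Timd4, Icam2, Selp, Alox15, Prg4, Garnl3, Fcna and Vsig4, are known from resident large macrophages of the mouse peritoneal cavity. They were taken by symbol from a table of 21877 gene symbols, and all 9 were listed and passed the filter on low counts. The choice was made with earlier results of these data known. RNA was sequenced from whole peritoneum of male C57BL/6 mice that carried or lacked Mr1, an MHC-like molecule that shows microbial riboflavin metabolites to MAIT cells, a class of innate-like T cell. Mice were injected into the peritoneal cavity for 6 weeks with 4.25% PD fluid, a glucose-rich peritoneal dialysis solution, or with an equal volume of PBS. The groups were Mr1-/- with PD fluid (2 libraries), Mr1+/+ with PD fluid (3 libraries), Mr1-/- with PBS (2 libraries) and Mr1+/+ with PBS (3 libraries). No other allele or agent is named for any group, and the sources used here give neither ages, nor the extent of the Mr1 deletion, nor whether animals were pooled. The labels do not link libraries to individual animals, and the p-values therefore reflect the spread among these samples alone, which may be technical.

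Large peritoneal macrophages are long-lived resident cells of the cavity fluid. Their identity depends on the transcription factor Gata6, which is induced by retinoic acid, and they take up dying cells, partly through the phosphatidylserine receptor Tim-4 encoded by Timd4. Several of these genes are not restricted to them: Selp (P-selectin) and Icam2 are also endothelial and platelet genes, Prg4 (lubricin) is made by synovial and mesothelial lining cells, Alox15 is also an eosinophil gene, and Vsig4 and Timd4 are also carried by other resident tissue macrophages.

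Library totals were 14145635 to 16335799 counts. Mr1+/+ PBS replicates 1 and 2, and Mr1-/- PD fluid replicates 1 and 2, were near-identical: the chi-square per gene between their counts was 2.23 and 1.74, against 18.6 to 118 for the other 6 pairs within groups. Each near-identical pair was therefore added together as a single sample. The resulting 8 samples comprised 1 for Mr1-/- PD fluid, 3 for Mr1+/+ PD fluid, and 2 each for Mr1-/- PBS and Mr1+/+ PBS. Tests on the single Mr1-/- PD fluid sample take its variance from the other groups. Mr1 averaged 2.25 ± 0.255 CPM (SD, n = 3) in Mr1-/- samples and 27.7 ± 4.66 CPM (SD, n = 5) in Mr1+/+ samples (exact two-sided permutation test, p = 0.0179, the smallest that 56 splits can give). CPM is the count scaled to the TMM-adjusted library size. Transcripts of other organs differed between libraries. The pancreatic lipase gene Pnlip stood at 4974 CPM of the total count in Mr1+/+ PBS replicate 3, against 30.4 to 974 in the other libraries. The liver gene Alb lay at 66.2 to 111 CPM of the total count where Mr1 was deleted, against 0.190 to 2.22 in Mr1+/+ libraries. Pnlip and Alb were chosen after their values were seen, and their part in the results below was not tested.

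The promoters of Fcna and Vsig4, the members called below, and of Timd4, the member highest per length in most groups, are printed to give the sequence around their starts. Of the 9 genes, 5 had an entry in the RefSeq promoter table (build GRCm38.p6), which holds 250 bases before to 50 after each start. The GATA factor letters AGATAA with the variant TGATAA, then AGATAG with the variant TGATAG, and the letters GAGGAAGT of the macrophage factor PU.1 were searched on both strands, and capitals mark a match. Fcna spans chr2:25627925-25628224 (minus strand), Vsig4 chrX:96293389-96293688 (minus strand) and Timd4 chr11:46810549-46810848 (plus strand).
Fcna: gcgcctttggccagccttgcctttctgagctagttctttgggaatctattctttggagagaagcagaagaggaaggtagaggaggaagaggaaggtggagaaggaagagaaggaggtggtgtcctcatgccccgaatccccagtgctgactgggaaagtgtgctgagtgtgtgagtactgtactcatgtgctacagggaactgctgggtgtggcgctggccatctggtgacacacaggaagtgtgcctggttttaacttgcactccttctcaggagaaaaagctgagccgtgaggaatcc
Vsig4: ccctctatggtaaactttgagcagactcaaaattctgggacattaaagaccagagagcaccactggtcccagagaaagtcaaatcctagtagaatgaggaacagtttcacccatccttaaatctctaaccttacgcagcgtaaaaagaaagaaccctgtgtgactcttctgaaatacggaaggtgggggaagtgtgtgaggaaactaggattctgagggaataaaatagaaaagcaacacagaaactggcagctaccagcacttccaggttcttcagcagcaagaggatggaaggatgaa
Timd4: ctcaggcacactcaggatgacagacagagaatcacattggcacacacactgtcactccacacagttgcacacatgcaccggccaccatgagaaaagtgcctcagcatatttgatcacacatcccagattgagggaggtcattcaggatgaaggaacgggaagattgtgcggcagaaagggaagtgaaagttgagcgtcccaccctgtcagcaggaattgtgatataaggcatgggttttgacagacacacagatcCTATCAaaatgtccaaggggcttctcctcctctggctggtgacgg
The only match among the members' entries searched was in Timd4, where CTATCA, the reverse complement of TGATAG, begins 5 bases after the start. GATA letters occurred in 29.8% and GAGGAAGT in 3.20% of the 32851 promoter windows searched. The shorter word GAGGAAG was added after GAGGAAGT had given no match in a member's window searched. It occurred at 3 places in the Fcna window, in no other member's window searched, and in 13.6% of all windows searched. A match is a description of letters, not a site.

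Per kilobase of exon, Timd4 and Icam2 were the most abundant members in every group. Timd4 stood at 23.8 CPM per kb in the Mr1-/- PD fluid sample, 20.1 ± 0.343 in Mr1+/+ PD fluid (SD, n = 3), 25.7 ± 20.0 in Mr1-/- PBS (SD, n = 2) and 25.9 ± 4.28 in Mr1+/+ PBS (SD, n = 2). Icam2 stood at 24.4, 20.0 ± 1.18, 21.3 ± 2.14 and 25.3 ± 7.56 CPM per kb in the same groups and did not differ from Timd4 beyond their spread. Fcna came next, at 8.73, 14.6 ± 3.17, 4.29 ± 0.612 and 6.51 ± 2.72 CPM per kb, and Gata6 after it, at 3.78, 5.11 ± 0.630, 2.88 ± 0.165 and 3.49 ± 0.967. The order of the rest changed with treatment. Vsig4 was the fifth with PD fluid, at 2.64 in the Mr1-/- sample and 3.31 ± 1.92 CPM per kb in Mr1+/+, and last with PBS, at 0.160 ± 0.162 and 0.396 ± 0.0254. Selp, Alox15, Prg4 and Garnl3 lay between 0.485 and 2.01 CPM per kb in every group mean.

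The first comparison asked how 6 weeks of PD fluid moved these genes in Mr1+/+ peritoneum. Vsig4, a complement receptor of resident macrophages, and Fcna, the secreted lectin ficolin A, rose with PD fluid; the other 7 did not pass the test (edgeR quasi-likelihood F test, Benjamini-Hochberg adjusted p under 0.05 over 15385 genes). So 2 of 9 were called, against 14.9% of all genes tested (25% by DESeq2, which called 3 members, and 37.5% with 10 separate libraries, which called 4), and with 9 genes a share that near the background is not a result about the members as a group. Their median log2 fold change was 0.55, against -0.06 over all genes, and 7 of 9 were positive. In bulk tissue, fewer cells of a type and less RNA per cell cannot be told apart.

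**Figure D1:**
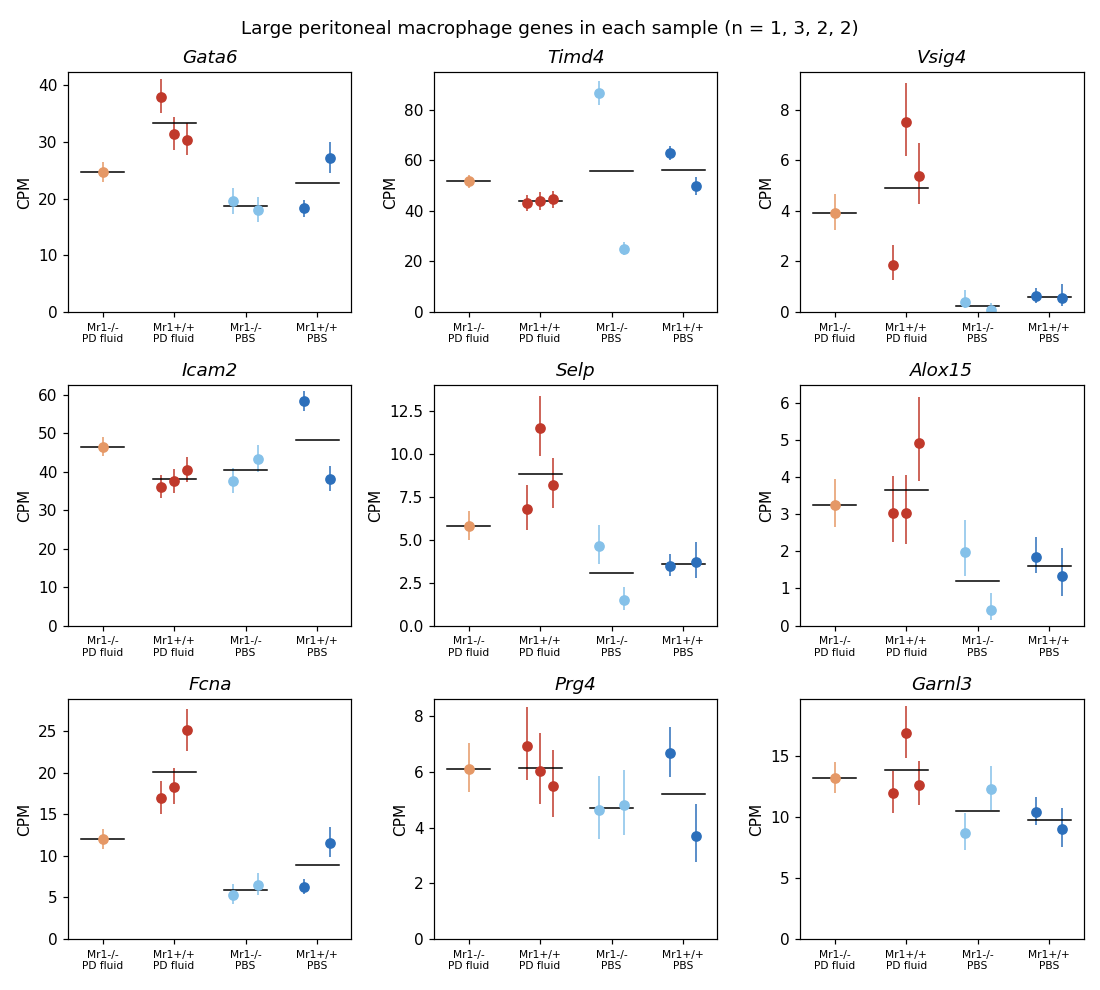
CPM of each of the 9 genes (y axis) in every sample, by group (x axis); points are samples, vertical bars exact 95% Poisson intervals that cover counting error only, and horizontal lines group means. Vsig4 lies at 1.86 to 7.51 CPM in the 3 Mr1+/+ PD fluid samples and at or below 0.615 CPM in all PBS samples, while the 2 Mr1-/- PBS samples of Timd4 lie far apart, at 86.6 and 25.0 CPM.

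Vsig4 had 1.86, 7.51 and 5.38 CPM in Mr1+/+ PD fluid replicates 1 to 3, against 0.615 and 0.562 CPM in the Mr1+/+ PBS samples. All PD fluid samples were higher than both PBS samples, replicate 1 least so, and the PBS values rest on 20 and 8 counts. The log2 fold change was 3.04 ± 0.77 (SE; edgeR adjusted p = 0.0358). Fcna had 16.9, 18.3 and 25.1 CPM with PD fluid, against 6.30 and 11.6 CPM with PBS. The groups did not overlap, and the higher PBS value was that of replicate 3, the library rich in Pnlip. The log2 fold change was 1.18 ± 0.31 (edgeR adjusted p = 0.0413). Over the 10 fits that each left out 1 library, the log2 fold change stayed at 2.62 to 3.43 for Vsig4 and at 0.98 to 1.67 for Fcna. The adjusted p did not hold in each: without Mr1+/+ PD fluid replicate 2 it was 0.108 for Vsig4 and 0.0875 for Fcna, and without replicate 3 it was 0.121 and 0.139. Those 2 fits called 339 and 0 genes in all. Without Mr1+/+ PBS replicate 3, Vsig4 stood at 2.99 with an adjusted p of 0.0652.

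Gata6, the transcription factor that defines these cells, had 37.9, 31.4 and 30.4 CPM in Mr1+/+ PD fluid samples, against 18.3 and 27.2 CPM in Mr1+/+ PBS samples. The groups did not overlap, but the log2 difference of 0.55 ± 0.21 missed the threshold (edgeR adjusted p = 0.106). The higher PBS value of Gata6 was that of replicate 3, the library rich in Pnlip. Which cells of the whole peritoneum gave the Gata6 reads was not tested. Timd4 had 43.0, 43.8 and 44.5 CPM with PD fluid, against 62.9 and 49.8 CPM with PBS. The PD fluid samples were close together and all lower, with a log2 difference of -0.37 ± 0.47 (edgeR adjusted p = 0.613). Those 2 defining genes therefore had estimates of opposite sign, and neither passed the test.

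Among the adhesion genes, Selp had 6.82, 11.5 and 8.23 CPM in Mr1+/+ PD fluid samples, against 3.48 and 3.72 CPM in Mr1+/+ PBS samples. All PD fluid samples were higher, and the log2 difference was 1.30 ± 0.47 (edgeR adjusted p = 0.0969; DESeq2 adjusted p = 0.0429). Icam2, a ligand of leukocyte integrins, had 36.1, 37.6 and 40.5 CPM with PD fluid, against 58.4 and 38.1 CPM with PBS. The groups overlapped at -0.34 ± 0.19 (adjusted p = 0.244). Endothelial markers moved with PD fluid in the same samples: 6 of 11 rose and none fell, and their summed level was 1885 to 2359 CPM with PD fluid, against 1189 to 1304 CPM with PBS. Platelet markers summed to 60.0 to 68.9 CPM with PD fluid, against 33.2 to 41.1 CPM with PBS, and of the 4 tested Pf4 rose (log2 2.63 ± 0.53, edgeR adjusted p = 0.0232), while Gp1bb was at 0 in both groups. Their part in the Selp and Icam2 values was not tested.

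Alox15, the 12/15-lipoxygenase that oxidises polyunsaturated fatty acids, had 3.04, 3.02 and 4.92 CPM in Mr1+/+ PD fluid samples, against 1.85 and 1.33 CPM in Mr1+/+ PBS samples. The groups did not overlap, at 1.19 ± 0.62 (edgeR adjusted p = 0.213). Eosinophil markers summed to 10.7 to 13.6 CPM with PD fluid, against 11.7 to 11.9 CPM with PBS, with 0 of 5 tested called. Of those, 3 were positive and 2 negative, with a median log2 fold change of 0.67. Their part in the Alox15 values was not tested. Prg4 had 6.94, 6.04 and 5.51 CPM with PD fluid, against 6.67 and 3.72 CPM with PBS, and the groups overlapped (0.24 ± 0.32, adjusted p = 0.622). Prg4 shares 204 bases of exon with Tpr on the other strand, and the counting is not stated to use strand, so reads there cannot be told apart. The same holds for Fcna (90 bases with Fcnaos), Gata6 (93 with 1010001N08Rik) and Selp (186 with Gm16587 and 438 with Gm16548). None of those partners of Fcna, Gata6 and Selp is among the gene symbols counted. Garnl3, named for a GTPase-activating domain, had 12.0, 16.8 and 12.6 CPM with PD fluid, against 10.4 and 8.99 CPM with PBS. The PD fluid samples were all higher, at 0.51 ± 0.25 (edgeR adjusted p = 0.188). In all, 6 members were higher in every PD fluid sample, 1 was lower in every one and 2 overlapped. Of all genes tested, 25% were higher and 25.6% lower in every PD fluid sample, and 50.7% did not overlap in either direction.

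**Figure D2:**
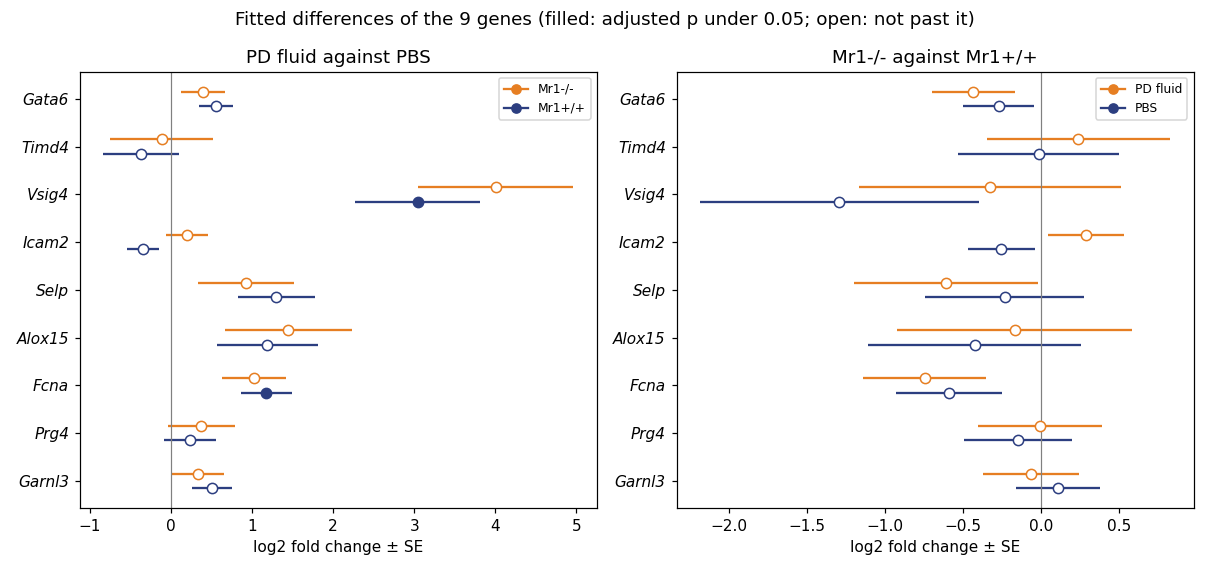
Fitted log2 fold changes ± SE (x axis) of the 9 genes (y axis), for PD fluid against PBS in each genotype (left) and for Mr1-/- against Mr1+/+ under each treatment (right); filled points have an edgeR adjusted p under 0.05. Only Vsig4 (3.04) and Fcna (1.18) with PD fluid in Mr1+/+ are filled.

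In Mr1-/- peritoneum the same treatment gave 1 sample with PD fluid against 2 with PBS, and no member was called. By edgeR 0 of 15385 genes were called (0%), 231 (1.5%) reached an unadjusted p under 0.05, 11 were called by DESeq2, which gave only 2 of the 9 members an adjusted p, and 2 with the 10 separate libraries. Vsig4 had 3.91 CPM in the Mr1-/- PD fluid sample, against 0.408 and 0.0677 CPM in the Mr1-/- PBS samples. The second PBS value is 1 count, whose exact 95% Poisson interval runs from 0.00171 to 0.377 CPM and covers counting error only. The log2 difference was 4.01 ± 0.96 (edgeR adjusted p = 1), and it ranked 14 of all genes by p. It was 5.73 without Mr1-/- PBS replicate 1 and 3.24 without replicate 2.

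Fcna had 12.0 CPM in the Mr1-/- PD fluid sample, against 5.30 and 6.49 CPM in the Mr1-/- PBS samples (log2 1.02 ± 0.40, edgeR adjusted p = 1). Vsig4 and Fcna were the 2 members with an unadjusted p under 0.05. Gata6 had 24.6 CPM with PD fluid, against 19.5 and 17.996 CPM with PBS. Timd4 had 51.6 CPM with PD fluid, which lay between the 86.6 and 25.0 CPM of the PBS samples. The Mr1-/- PBS samples thus differed more from each other in Timd4 than any other pair of samples within a group. Selp had 5.81 CPM with PD fluid, against 4.62 and 1.49 CPM with PBS, and Alox15 3.25 CPM, against 1.97 and 0.406 CPM, the last from 6 counts. Replicate 2 was the low Mr1-/- PBS sample for Timd4, Vsig4, Selp and Alox15, and its summed mesothelial markers were 99.3 CPM, against 245 CPM in replicate 1. Icam2 had 46.5 CPM with PD fluid, against 37.6 and 43.4 CPM with PBS, Prg4 6.12 CPM, against 4.62 and 4.80 CPM, and Garnl3 13.2 CPM, against 8.71 and 12.2 CPM. In all, 8 members were higher with PD fluid than in both PBS samples, beside 28.7% of all genes, and 56.7% did not overlap in either direction.

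**Figure D3:**
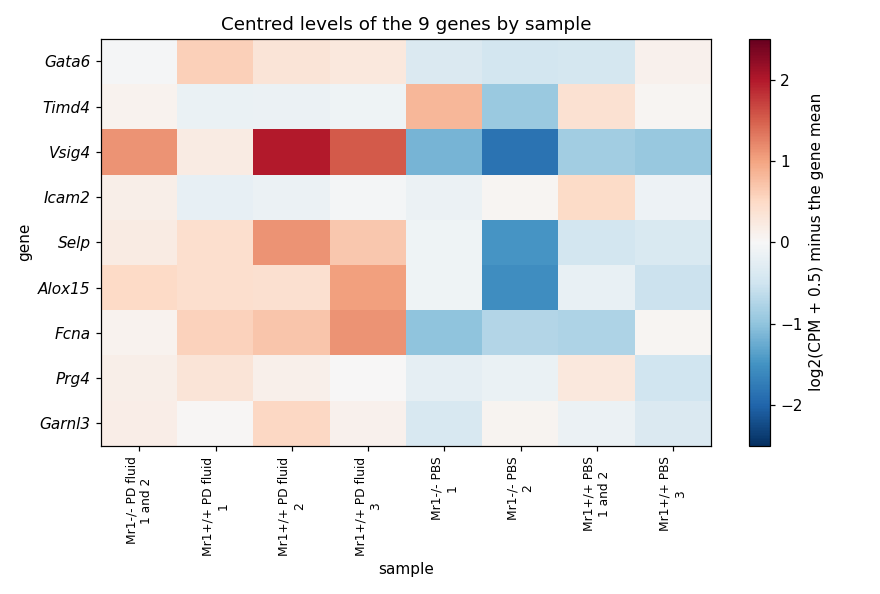
Level of each gene (rows) in each sample (columns) as log2(CPM + 0.5) minus the gene's mean over the 8 samples; red is above and blue below the mean. Vsig4 spans the widest range, and Mr1-/- PBS replicate 2 is low for Timd4, Vsig4, Selp and Alox15.

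Genotype was compared under each treatment, and no member was called. Under PBS, 2 genes of 15385 were called by edgeR (0.013%), 1329 reached an unadjusted p under 0.05, 211 were called by DESeq2 and 50 with the 10 separate libraries. Vsig4 was lower in both Mr1-/- samples (0.408 and 0.0677 CPM) than in the Mr1+/+ samples (0.615 and 0.562 CPM), at -1.29 ± 0.89 (edgeR adjusted p = 0.646). That value was -3.01 without Mr1-/- PBS replicate 1 and -0.53 without replicate 2. The other 8 members overlapped, beside 38.6% of all genes whose samples did not. Fcna stood at -0.59 ± 0.34 (adjusted p = 0.596), and the other 7 lay between -0.43 and 0.11. Liver transcripts differed with genotype in every library, as Alb shows above, so liver RNA and genotype cannot be told apart in these comparisons. Vsig4, Timd4 and Fcna are also expressed by liver macrophages, whose marker Clec4f, chosen after its values were seen, had at most 4 counts in any Mr1-/- library and 0 in any Mr1+/+ library.

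Under PD fluid, again 2 genes were called (0.013%), 2932 reached an unadjusted p under 0.05 and 1036 were called by DESeq2, which gave 4 of the 9 members an adjusted p and called none of those. The 10 separate libraries gave 3400 (22.9%), none of them a member. Gata6, Selp and Fcna were lower in the Mr1-/- sample than in every Mr1+/+ sample, and Timd4 and Icam2 were higher than in every one. Non-overlap of that kind held for 70% of all genes. The largest difference was that of Fcna, 12.0 CPM in the Mr1-/- sample and 20.1 ± 4.36 CPM in Mr1+/+ samples (SD, n = 3), at -0.74 ± 0.39 (edgeR adjusted p = 0.343). Gata6 stood at -0.43 ± 0.27 (adjusted p = 0.41).

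The PD fluid response in Mr1-/- minus that in Mr1+/+ tested the difference between genotypes directly. By edgeR no member and 0 genes in all were called (0%), while 2037 genes reached an unadjusted p under 0.05, 488 were called by DESeq2 and 1490 (10.1%) with the 10 separate libraries. No member was among the calls of the 10 libraries, nor among those of DESeq2, which gave 4 of the 9 members an adjusted p. Icam2 had the smallest p of the members, at 0.54 ± 0.32 (edgeR adjusted p = 0.477). Vsig4 stood at 0.96 ± 1.19 (adjusted p = 0.748) and Fcna at -0.15 ± 0.51 (adjusted p = 0.922). With an SE of that size for Vsig4, a miss does not show that the genotypes respond alike.

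Set against macrophage genes in the same samples, the direction of the members depended on the gene and on the denominator. Adgre1, which encodes the pan-macrophage protein F4/80, rose with PD fluid in Mr1+/+ (log2 1.49 ± 0.37, edgeR adjusted p = 0.041). Timd4 stood at 34.3 to 50.9 CPM per 100 CPM of Adgre1 in Mr1+/+ PD fluid samples, against 92.9 to 240.7 in Mr1+/+ PBS samples. Icam2 stood at 29.4 to 42.7, against 71.0 to 223, and Gata6 at 24.6 to 44.9, against 50.7 to 69.9. Garnl3 stood at 10.3 to 14.1, against 16.8 to 39.9. Those ranges did not overlap, and all were lower with PD fluid. Adgre1 itself rose, so a gene that rose less tends to be lower on this scale. The share of all genes that were lower on it was not counted. Fcna, at 14.3 to 20.4, against 21.6 to 24.1, was lower on this scale although its CPM rose. Vsig4, at 2.20 to 5.89, against 1.05 to 2.35, overlapped, as did Prg4, Selp and Alox15. No member was higher on this scale in every Mr1+/+ PD fluid sample than in both Mr1+/+ PBS samples. In the Mr1-/- PD fluid sample Icam2 stood at 89.8, against 136 to 185 in the Mr1-/- PBS samples, Gata6 at 47.5, against 56.6 to 96.0, and Garnl3 at 25.5, against 38.5 to 42.8. Those were lower with PD fluid, as in Mr1+/+, while Timd4, at 99.7, lay inside the 78.7 to 426 of the PBS samples. Prg4, at 11.8, was below its PBS range of 15.1 to 22.7. Fcna, at 23.2, lay inside 20.4 to 26.1, and Selp and Alox15 lay inside their PBS ranges too. Vsig4, at 7.56, was above its PBS range of 0.213 to 2.01.

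The choice of denominator changed some of these orders. Per 100 CPM of 15 summed pan-macrophage markers, Timd4 was still lower in all Mr1+/+ PD fluid samples, at 1.06 to 1.42, against 2.003 to 2.32 with PBS, and so was Icam2, at 0.967 to 1.19, against 1.53 to 2.15. Fcna was higher, at 0.478 to 0.599, against 0.232 to 0.466, and Vsig4 too, at 0.0615 to 0.196, against 0.0226 in both. So were Selp, at 0.196 to 0.301, against 0.128 to 0.150, and Alox15, at 0.0788 to 0.118, against 0.0537 to 0.0679. Gata6 overlapped, at 0.726 to 1.25, against 0.672 to 1.09, and so did Prg4 and Garnl3. In the Mr1-/- PD fluid sample, Gata6, at 0.901, was above its PBS range of 0.810 to 0.846 on this scale. Prg4, at 0.224, was above 0.200 to 0.216, although Gata6 and Prg4 were below their PBS ranges per Adgre1. Icam2, at 1.70, lay inside 1.63 to 1.95, and Garnl3, at 0.483, inside 0.377 to 0.551. Timd4 lay inside its PBS range, and Fcna, Selp, Alox15 and Vsig4 lay above theirs. No test of these ratios was made.

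**Figure D4:**
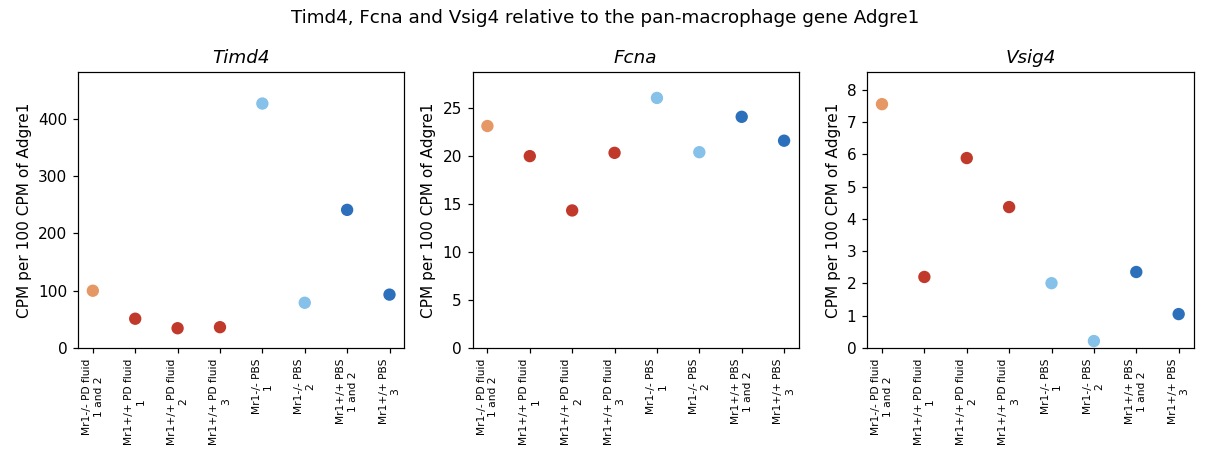
CPM of Timd4, Fcna and Vsig4 per 100 CPM of Adgre1 (y axes) in each sample (x axes), coloured by group. Timd4 lies at 34.3 to 50.9 in Mr1+/+ PD fluid samples and at 92.9 to 240.7 in Mr1+/+ PBS samples.

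Other cell types moved in the same comparison. With PD fluid in Mr1+/+, 4 of 15 pan-macrophage markers rose and none fell, among them Itgam (log2 1.55 ± 0.38, edgeR adjusted p = 0.0319). Of 8 interstitial tissue macrophage markers 4 rose, with a median of 1.09: the transglutaminase gene F13a1 by 2.49 ± 0.50 and the haemoglobin scavenger receptor Cd163 by 1.69 ± 0.22 (edgeR adjusted p = 0.0287 and 0.0124). Their summed level was 1161 to 1493 CPM with PD fluid, against 555 to 796 CPM with PBS, and in Mr1-/- samples 992 CPM, against 521 to 528 CPM. Vsig4 and Timd4 are carried by such cells too, and the part of these cells in their values was not tested. Of 10 monocyte-derived and small peritoneal macrophage markers 3 rose (Mgl2, Ccr2 and Clec10a), while the median was -0.12. All 8 B cell markers fell, with a median of -1.10, and summed to 1175 to 1355 CPM, against 2160 to 3360 CPM. None of 11 mesothelial markers was called, although 8 were positive and the median was 0.80. Their sum was 241 to 549 CPM with PD fluid, against 215 to 1156 CPM with PBS. The 1156 CPM is that of Mr1+/+ PBS replicate 3, where the keratin gene Krt8, which gut epithelium also expresses, gave 584 CPM, against 4.43 CPM in the other Mr1+/+ PBS sample. That library also held the gut mucin gene Muc2 at 657 CPM of the total count, against 0.424 to 2.51 in the other libraries (Muc2 was chosen after its values were seen).

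**Figure D5:**
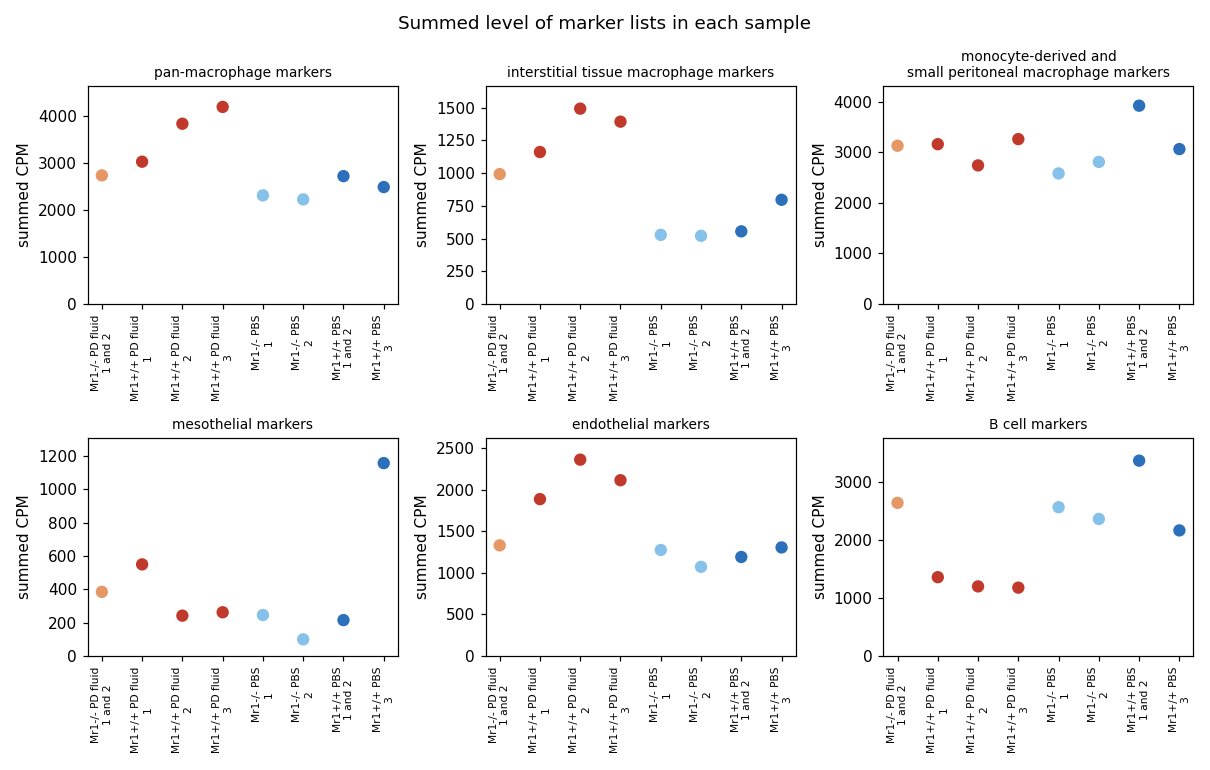
Summed CPM of 6 marker lists (y axes) in each sample (x axes), coloured by group. Interstitial tissue macrophage markers sum to 1161 to 1493 CPM in Mr1+/+ PD fluid samples and 555 to 796 CPM in Mr1+/+ PBS samples, and B cell markers to 1175 to 1355 CPM and 2160 to 3360 CPM.

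Genes of the members' pathways were counted in the same comparison. Of 13 tested other large peritoneal macrophage genes, only Ltbp1, which binds latent TGF-beta, was called (0.81 ± 0.18, edgeR adjusted p = 0.026), although 11 were positive and the median was 0.81. Of 12 genes of retinoid supply and signalling, upstream of Gata6, 4 rose and 1 fell: the retinol carrier Rbp4 stood at 2.01 ± 0.29 and the retinol receptor Stra6 at -1.04 ± 0.26. Of 13 apoptotic cell clearance genes, the process Timd4 serves, 4 rose, among them the scavenger receptor Cd36 (1.67 ± 0.38), and Elmo1 fell (-0.71 ± 0.17). Among the adhesion genes listed beside Selp and Icam2, the integrin gene Itgam and the endothelial gene Esam (1.41 ± 0.24) rose. No eicosanoid enzyme of 8 was called. Of 8 tested lectin pathway and complement genes, the setting of ficolin A and of Vsig4, which binds C3 fragments, C4b (0.79 ± 0.21), Colec12 (0.78 ± 0.21) and C3 (0.70 ± 0.20) rose. In the other 4 comparisons no gene of these lists was called by edgeR.

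Genes whose levels over the 8 samples were most like each member's were found by the root mean square difference of centred log2 CPM, as a description, among 13664 genes. Closest to Gata6 were Btbd3 (0.0852), Rin2 (0.0872) and Fam149a (0.108). Closest to Timd4 were F2rl3 (0.203), Pira2 (0.208) and Pgam2 (0.246), and to Fcna Foxc2 (0.129). Selp was nearest Fbln2 (0.194), then Adamts2 (0.211) and then Vwf, an endothelial gene (0.216). The closest to Vsig4 were F13a1 (0.644), Cd209f (0.651) and Itgbl1 (0.657). The measure grows with a gene's own spread, and the SD over samples was 1.79 for Vsig4 and 0.477 for Timd4 on the log2 scale, so these values are not compared between members. Among the members, Garnl3 and Prg4 were closest (0.268), Icam2 and Vsig4 farthest (1.85), and Gata6 and Timd4 differed by 0.645.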

How the data were processed

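RNA of whole mouse peritoneum was poly-A selected and reverse-transcribed with random primers, per the labels' protocols, which name no strand-marking step and no molecular identifiers. The authors deposited whole-number read counts per gene symbol, not normalized. Per the submitters' processing notes, mm10 was the genome build. Which aligner, counter and annotation were used is not given in the sources used here. Rows sharing a symbol were summed (21899 rows, 21877 symbols). Columns were matched to samples by their names. The members and lists were chosen with earlier results of these data known.

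Near-identical libraries of a group were summed. Genes were kept with filterByExpr (15385), scaled by TMM and tested with edgeR 4.0.16 in R 4.3.3 (quasi-likelihood F test, robust, 4 group means, 4 residual degrees of freedom before shrinkage), with Benjamini-Hochberg adjustment over all genes tested and a threshold of 0.05. SE is the log2 fold change over the square root of F. Log2 CPM for likeness used a prior count of 2. The fit was also run on counts simulated from its own estimated dispersions. That run assumes the fitted spread, so it cannot show whether that spread is right for these samples. Coordinates and exon lengths came from GENCODE M21. Alternatives were 10 separate libraries, a replicate block, DESeq2 1.42.0, other scalings and filters, and leaving out each library. Named genes are Mr1, the members, up to 4 called genes per list (or 2 with the smallest p), and the 3 genes most like each member; not all are printed. The PU.1 word GAGGAAG was added after the results for GAGGAAGT were seen.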

Additional observations from a re-analysis of the deposited data

How the results depend on the processing

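In Mr1+/+ with PD fluid against PBS, 2 members were called. With 10 separate libraries 4 were called (Gata6, Selp, Fcna and Vsig4, beside 37.5% of all genes), and 4 with the replicate block (37.4%). DESeq2 called 3, adding Selp. Leaving out 1 library gave 0 to 3, with 0 without Mr1+/+ PD fluid replicate 2 or 3, while Vsig4 stayed at 2.62 to 3.43 and Fcna at 0.98 to 1.67. Vsig4 ran from 3.24 to 5.73 for PD fluid in Mr1-/- and from -3.01 to -0.53 for genotype under PBS. In the other 4 comparisons 0 members were called by edgeR under every setting run. Deviations of same-numbered libraries from their group means correlated at -0.156 to 0.174, and those of differently numbered libraries at -0.185 to 0.185. In a group of 2 libraries the deviations are exact opposites, so this check cannot tell whether replicate numbers pair the samples. With the replicate block, Timd4 with PD fluid in Mr1-/- turned to 0.019 and Garnl3 for genotype under PBS to -0.0055. Leaving out 1 library turned these log2 differences, none of them called, within these ranges. For PD fluid in Mr1+/+, Prg4 ran from -0.11 to 0.30. For PD fluid in Mr1-/-, Timd4 ran from -0.75 to 1.05. For genotype under PBS, Gata6 ran from -0.33 to 0.039, Timd4 from -1.17 to 0.62, Selp from -1.27 to 0.36, Alox15 from -1.96 to 0.30 and Garnl3 from -0.16 to 0.33. For genotype under PD fluid, Alox15 ran from -0.37 to 0.11, Prg4 from -0.12 to 0.089, Garnl3 from -0.16 to 0.081 and Vsig4 from -0.72 to 0.091. For the difference between responses, Timd4 ran from -0.38 to 1.41, Selp from -0.97 to 0.66, Alox15 from -0.47 to 1.79, Garnl3 from -0.40 to 0.095 and Fcna from -0.65 to 0.054. The causes were not tested. Low counts limit Vsig4 and Alox15 in PBS samples.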
